A study of Saccharomyces cerevisiae with 12 samples.

Results

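The 35 genes described here take part in iron uptake and iron handling in budding yeast, Saccharomyces cerevisiae. They include the siderophore genes FIT1 to FIT3, ARN1, ARN2, SIT1 and ENB1, and the reductive uptake genes FET3 and FTR1. Further members are the reductase genes FRE2 to FRE6, the low-affinity transporter gene FET4 and the manganese transporter gene SMF1. The vacuolar genes are FET5, FTH1, SMF3, CCC1 and COT1, and the mRNA decay factors are TIS11 and CTH1. The mitochondrial genes are MRS3, MRS4, ISU1 and ISU2, and the regulators are AFT1, AFT2, GRX3 and GRX4. The others are ATX1, CCC2, HMX1 and VHT1. All 35 genes were taken by systematic name from a fixed list, which was drawn up with earlier results of these data known. Each had 1 row in the table, which held 6177 genes in all, and 32 of the 35 had enough values to be tested.

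In this yeast, the transcription factors Aft1 and Aft2 switch on iron uptake genes when iron is short. The glutaredoxins Grx3 and Grx4 relay the state of iron-sulfur cluster synthesis in mitochondria to Aft1, which leaves the nucleus when clusters are plentiful. Iron enters the cell either bound to siderophores, small iron chelators that cell wall Fit proteins retain and Arn transporters import, or as free iron that surface reductases reduce and the copper-dependent oxidase Fet3 passes to the permease Ftr1.

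The study compared total RNA of san1 mutant cells with RNA of cells carrying SAN1, which encodes a nuclear ubiquitin ligase for misfolded proteins. Both RNAs were hybridized together on each of 12 2-channel arrays, 6 of cells grown in the medium the labels call YC and 6 of cells grown in YEPD, a rich medium. In each medium, the san1 RNA was in channel 2 on arrays 1 to 3 and in channel 1 on arrays 4 to 6. On 3 YC arrays (1 to 3) the labels conflict, with YEPD in the description but YC in title and source name, and they were kept as YC. The san1 allele, the strain and the number of cultures are not given in the labels, and the spread between arrays that underlies each p-value may be technical in part.

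All values below are log2 ratios of san1 over SAN1, centred on the median of each array, and a change is called where limma's moderated test gave a Benjamini-Hochberg adjusted p under 0.05 over 5890 genes. Base 2 is assumed, as the table does not name its base, and folds would be larger if it held natural logarithms. The direction was read from the SAN1 row, which was lower in san1 on 12 of 12 arrays once the table was taken as channel 2 over channel 1 (-4.57 to -2.69 in YC and -3.94 to -3.39 in YEPD). That choice sets the sign of every value here, and the labels alone do not settle it. An array held 5836 to 6180 values. The signal over background is unknown, and the number of arrays limits the precision.

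In YC, 15 of the 32 tested iron genes fell in san1 cells and 0 rose by limma's test (21 had an unadjusted p under 0.05, in either direction). That is 46.9% fallen, against 11.8% of all genes tested, of which 13.0% rose. The median change of the 32 was -0.16, against 0.00 over all genes tested. In YEPD, 0 fell and 1, FRE4, rose (5 had an unadjusted p under 0.05), against 0.323% fallen and 1.71% risen (2.04% called in either direction) of all genes. The median there was 0.01. Changes were small: the largest decrease, that of FIT3 in YC, was 1.33-fold, or 1.51-fold if the values are natural logarithms.

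**Figure D1:**
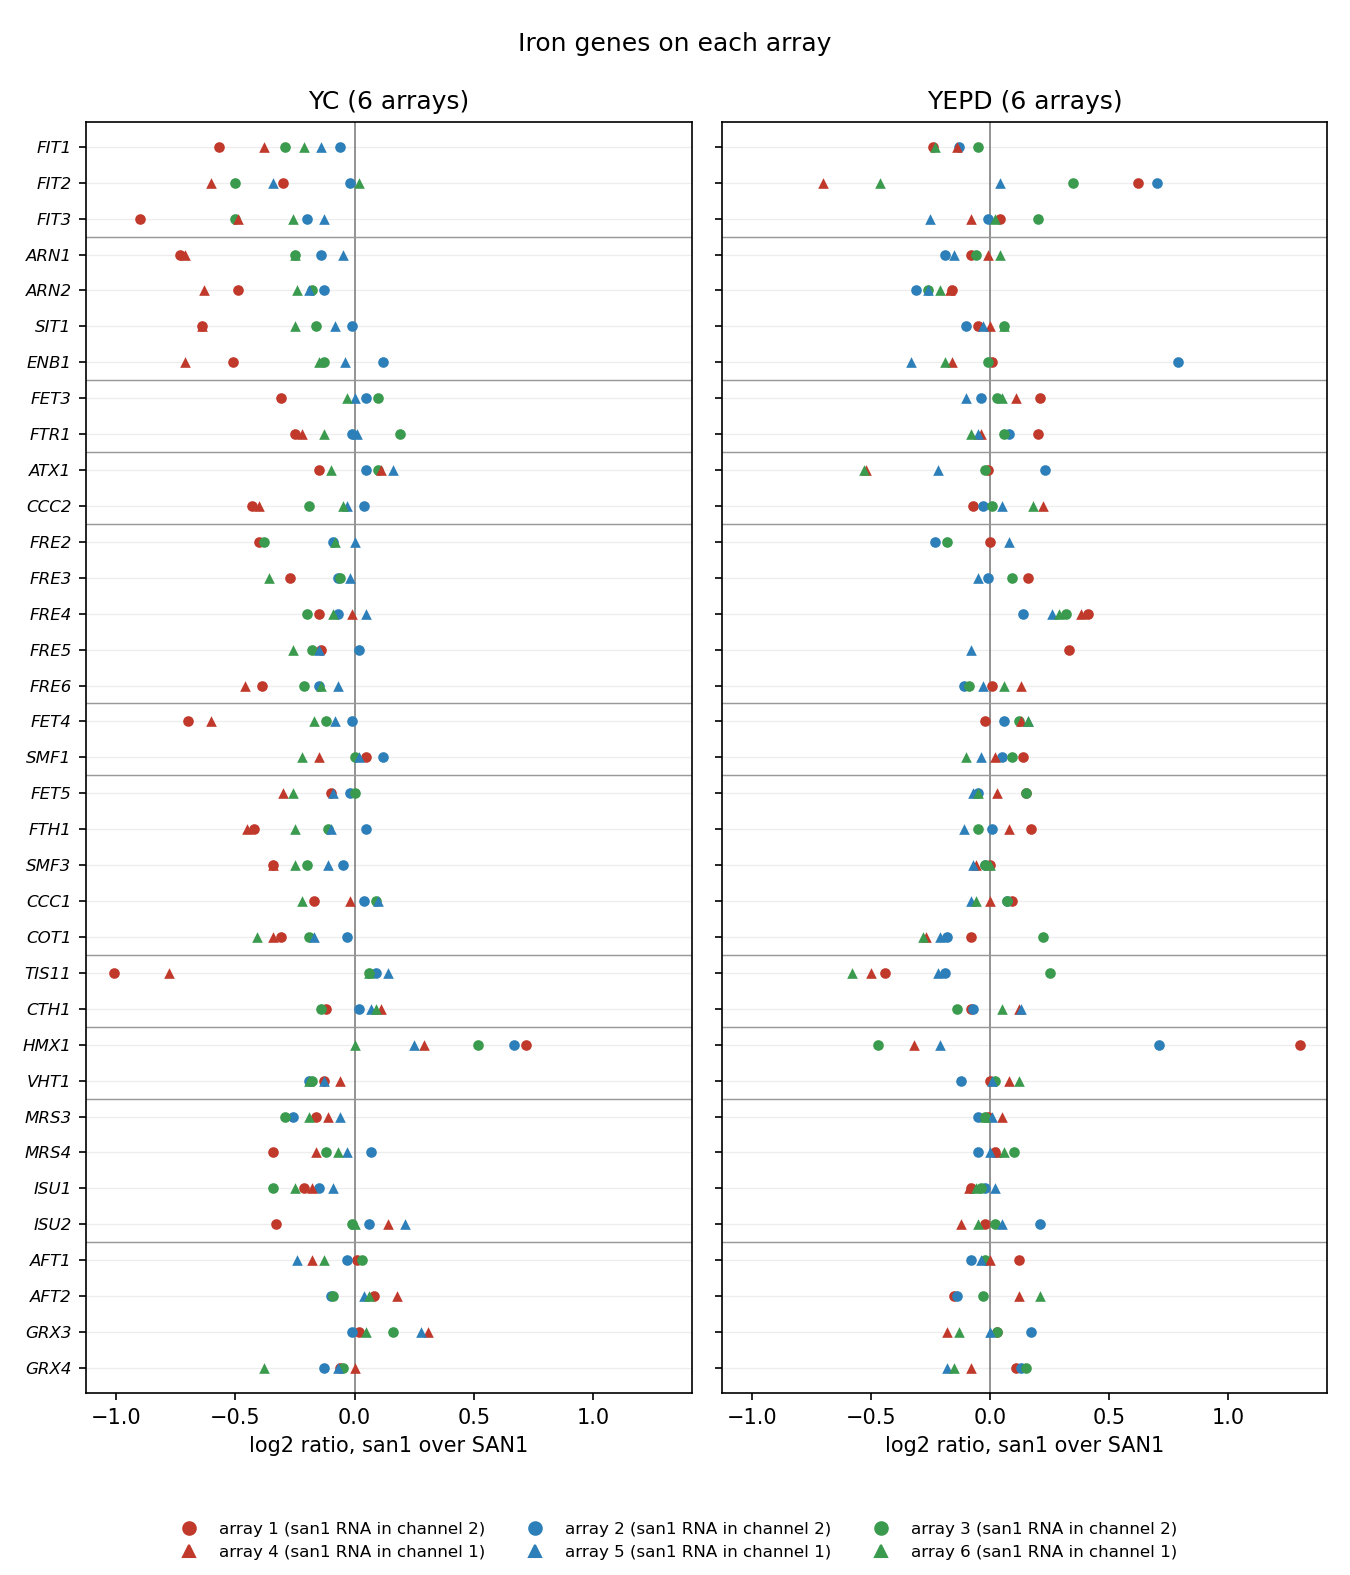
Log2 ratio of san1 over SAN1 (horizontal axis) of each of the 35 iron genes on each array, YC on the left and YEPD on the right. Circles are arrays with the san1 RNA in channel 2, triangles arrays with it in channel 1, colours join arrays 1 and 4, 2 and 5, and 3 and 6, and grey lines part the roles. In YC, 16 genes lay below 0 on every array that measured them, against 2 in YEPD.

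Signs were shared across arrays in YC. Of the 32 tested genes, 14 lay below 0 on every YC array that measured them and 0 above, against 11.1% and 11.7% of all genes. In YEPD, 2 (FIT1 and ARN2) lay below 0 throughout and 1 (FRE4) above, against 2.21% and 3.87%.

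The 4 largest fitted decreases over all 6 YC arrays were those of the siderophore genes FIT3, ARN1 (-0.36, SE 0.08, adjusted p = 0.0074), ARN2 and SIT1. That order rests on YC arrays 1 and 4: without them ARN1 (-0.17), ARN2 (-0.19) and SIT1 (-0.13) changed less than ISU1 (-0.21) and MRS3 (-0.20). Of the 3 FIT genes, which encode cell wall mannoproteins that retain siderophores, FIT1 and FIT3 fell. FIT3 (YOR383C) stood at -0.90, -0.20, -0.50, -0.49, -0.13 and -0.26 on YC arrays 1 to 6, and at 0.04, -0.01, 0.20, -0.08, -0.25 and 0.02 on YEPD arrays 1 to 6. All YC values were negative, while those of YEPD lay on both sides of 0 and overlapped them. FIT1 (YDR534C) stood at -0.57, -0.06, -0.29, -0.38, -0.14 and -0.21 in YC (fitted change -0.27, SE 0.056, adjusted p = 0.0054). In YEPD it was below 0 on all 5 arrays that measured it, from -0.24 to -0.05, without passing (-0.16, SE 0.062, adjusted p = 0.4).

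FIT2 (YOR382W) was the noisiest of the 3. It stood at -0.30, -0.02, -0.50, -0.60, -0.34 and 0.02 in YC and missed the threshold (-0.29, SE 0.13, adjusted p = 0.12), which it passed without YC array 6. In YEPD its sign followed the dye on 5 of 6 arrays: 0.62, 0.70 and 0.35 with the san1 RNA in channel 2, against -0.70, 0.04 and -0.46 with it in channel 1. FIT2, FIT3 and FRE5 are adjacent genes in the RefSeq gene table.

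Of the 4 siderophore transporter genes, ARN1, ARN2 and SIT1 fell in YC and ENB1 did not pass. SIT1 (YEL065W), which encodes the ferrioxamine B transporter, stood at -0.64, -0.01, -0.16, -0.64, -0.08 and -0.25 (fitted change -0.30, SE 0.076, adjusted p = 0.013). ARN1 (YHL040C), encoding a transporter of ferrichrome-type siderophores, stood at -0.73, -0.14, -0.25, -0.71, -0.05 and -0.25. Both genes were below 0 on all 6 YC arrays and lowest on arrays 1 and 4. Their calls depend on how arrays are counted. With arrays 1 and 4, 2 and 5, and 3 and 6 averaged to 3 replicates, the adjusted p was 0.053 for ARN1 and 0.071 for SIT1, and without YC arrays 1 and 4 the change of SIT1 was -0.13 (adjusted p = 0.051).

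ARN2 (YHL047C), the transporter gene for triacetylfusarinine C, was low in both media. It stood at -0.49, -0.13, -0.18, -0.63, -0.19 and -0.24 in YC, and at -0.16, -0.31, -0.26, -0.17, -0.26 and -0.21 in YEPD. The values were negative on 6 of 6 arrays in YC and 6 of 6 in YEPD, where they lay close together. The YEPD change nevertheless missed the threshold (-0.23, SE 0.057, adjusted p = 0.065), and the media did not differ beyond the spread (-0.08, SE 0.081, adjusted p = 0.56). Without YC arrays 1 and 4 the YEPD change of ARN2 passed, at the same value of -0.23 (adjusted p = 0.00084), as it did without either of these arrays alone. It also passed in the fit on YEPD arrays only and with each array scaled to the same spread. ENB1, the enterobactin transporter gene, stood at -0.51, 0.12, -0.13, -0.71, -0.04 and -0.15 in YC (-0.24, SE 0.115, adjusted p = 0.15).

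The reductive uptake pair did not follow the siderophore genes past the threshold in either medium. FET3 (YMR058W), the multicopper ferroxidase gene, stood at -0.31, 0.05, 0.10, 0.00 and -0.03 on YC arrays 1, 2, 3, 5 and 6 (-0.04, SE 0.058, adjusted p = 0.65). FTR1 (YER145C), the permease gene, stood at -0.25, -0.01, 0.19, -0.22, 0.01 and -0.13 in YC (-0.07, SE 0.048, adjusted p = 0.33). Both were low on YC array 1, and FTR1 was also low on array 4, which held no value for FET3. On most other YC arrays they were close to 0 or positive. In YEPD they ranged from -0.10 to 0.21 and from -0.08 to 0.20. Whether the siderophore genes and this pair differ was not tested.

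Of the genes that bring copper to Fet3, the copper ATPase gene CCC2 passed narrowly in YC (-0.18, SE 0.059, adjusted p = 0.044). It stood at -0.43, 0.04, -0.19, -0.40, -0.03 and -0.05, so that arrays 1 and 4 carried most of the change. Without those arrays it was -0.06 (adjusted p = 0.37), and averaging the array pairs gave an adjusted p of 0.12. The call was lost in 19 of 27 alternatives, 10 of which left out a single array. ATX1, the copper chaperone gene, ranged from -0.15 to 0.16 in YC and from -0.53 to 0.23 in YEPD and passed in neither medium.

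Of the 5 reductase genes, 2 were tested, and FRE4 differed between the media. FRE4 (YNR060W), a siderophore-iron reductase gene, stood at -0.15, -0.07, -0.20, -0.01, 0.05 and -0.09 in YC, and at 0.41, 0.14, 0.32, 0.38, 0.26 and 0.29 in YEPD. Every YEPD value lay above every YC value. It rose in YEPD (0.30, SE 0.038, adjusted p = 0.00064), did not pass in YC (-0.08, SE 0.038, adjusted p = 0.14), and the difference of YC minus YEPD passed (-0.38, SE 0.053, adjusted p = 0.0035). The YEPD rise held in each of the 27 alternatives (0.27 to 0.33, highest adjusted p = 0.026). The difference missed the threshold in 1 of 26, with the array pairs averaged (adjusted p = 0.083).

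FRE6 (YLL051C), encoding the reductase of the vacuole membrane, fell in YC. Its values were -0.39, -0.15, -0.21, -0.46, -0.07 and -0.14 (fitted change -0.24, SE 0.049, adjusted p = 0.0048), all negative, against -0.11 to 0.13 in YEPD. FRE2, FRE3 and FRE5 had too few values on YEPD arrays 4 to 6 to be tested. FRE5 also had too few on YEPD arrays 1 to 3, with only 0.33 on array 1 and -0.08 on array 5 in that medium. In YC, FRE2, a surface ferric reductase gene, stood at -0.40, -0.09, -0.38, 0.00 (just below 0) and -0.08 on arrays 1, 2, 3, 5 and 6. FRE3 ranged from -0.36 to -0.02 and FRE5 from -0.26 to 0.02 over the same 5 arrays. When 1 value in each dye orientation was enough, the YC changes were -0.17 for FRE2 (adjusted p = 0.044), -0.16 for FRE3 (0.054) and -0.16 for FRE5 (0.051).

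Of the transporter genes FET4 and SMF1, FET4 fell in YC and SMF1 did not pass in either medium. FET4 (YMR319C), encoding a low-affinity transporter of iron and other metals, stood at -0.70, -0.01, -0.12, -0.60, -0.08 and -0.17 in YC, and at -0.02, 0.06, 0.12, 0.13, 0.16 and 0.16 in YEPD. It was negative on 6 of 6 YC arrays and positive on 5 of 6 YEPD arrays. The YC change was -0.28 (SE 0.079, adjusted p = 0.021) and the difference from YEPD -0.38 (SE 0.112, adjusted p = 0.049). Both calls are fragile. The YC call was lost without array 1 (-0.19, adjusted p = 0.052), without array 4 (-0.21, adjusted p = 0.074) and without both (-0.10, adjusted p = 0.089). The difference was called without YC array 2 and lost without any 1 of the other 11 arrays (adjusted p = 0.051 to 0.099). SMF1, a manganese transporter gene of the same family as SMF3, ranged from -0.22 to 0.12 in YC.

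Of the 5 vacuolar genes, SMF3, FTH1, FET5 and COT1 fell in YC and CCC1 did not pass. SMF3 (YLR034C), which encodes an exporter of vacuolar iron, stood at -0.34, -0.05, -0.20, -0.34, -0.11 and -0.25 in YC, and between -0.07 and 0.00 in YEPD. It fell in YC (-0.21, SE 0.038, adjusted p = 0.0022). FTH1 and FET5, which encode the permease and oxidase of the vacuole and act as a pair, fell by 0.21 (SE 0.06, adjusted p = 0.023) and 0.13 (SE 0.037, adjusted p = 0.022). Neither call survived the averaging of array pairs (adjusted p = 0.1 for FTH1 and 0.082 for FET5) or the loss of YC arrays 1 and 4 (-0.10, adjusted p = 0.16, and -0.09, adjusted p = 0.13). Losing array 4 or array 6 singly ended either call (FTH1 adjusted p = 0.076 and 0.056, FET5 0.072 and 0.079), and losing array 1 ended that of FTH1 (0.058). COT1, a vacuolar transporter gene for zinc and cobalt, fell in YC (-0.24, SE 0.051, adjusted p = 0.0057), a call lost without YC arrays 3 and 6 (adjusted p = 0.072). It was also below 0 on 5 of 6 YEPD arrays (-0.13, SE 0.051, adjusted p = 0.37). CCC1, which carries iron into the vacuole, ranged from -0.22 to 0.10 in YC and from -0.08 to 0.09 in YEPD, and passed in neither medium.

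The mitochondrial genes ISU1 and MRS3 and the biotin transporter gene VHT1 fell in YC by smaller but more even amounts. ISU1 (YPL135W), encoding the scaffold on which iron-sulfur clusters are built, stood at -0.21, -0.15, -0.34, -0.18, -0.09 and -0.25 in YC (-0.20, SE 0.032, adjusted p = 0.0011). In YEPD it stood at -0.08, -0.02, -0.04, -0.09, 0.02 and -0.06, and the highest YC value lay below the lowest YEPD value by only 0.0002 (-0.09 in both). MRS3 (YJL133W), a mitochondrial iron carrier gene, stood at -0.16, -0.26, -0.29, -0.11, -0.06 and -0.19 in YC (-0.18, SE 0.029, adjusted p = 0.0014). It lay between -0.05 and 0.05 in YEPD, with a gap of only 0.0047 between the media. VHT1 (YGR065C) stood at -0.13, -0.19, -0.18, -0.06, -0.13 and -0.19 in YC (-0.15, SE 0.03, adjusted p = 0.0043), against -0.12 to 0.12 in YEPD. These 3 genes kept their YC call with the array pairs averaged and without YC arrays 1 and 4. So did FIT1, FIT3, ARN2, FRE6, SMF3 and COT1. ISU1, MRS3 and VHT1 had their lowest pair mean on YC arrays 3 and 6. Without those arrays, VHT1 missed its call (adjusted p = 0.054).

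The close relatives of MRS3 and ISU1 did not pass. MRS4, the other mitochondrial carrier gene, ranged from -0.34 to 0.07 in YC (-0.11, SE 0.043, adjusted p = 0.084, passing without array 2), and ISU2, the second scaffold gene, from -0.33 to 0.21 (0.01, SE 0.059, adjusted p = 0.89). Whether members of a pair differ was not tested, and probes of similar genes can read each other's RNA.

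**Figure D2:**
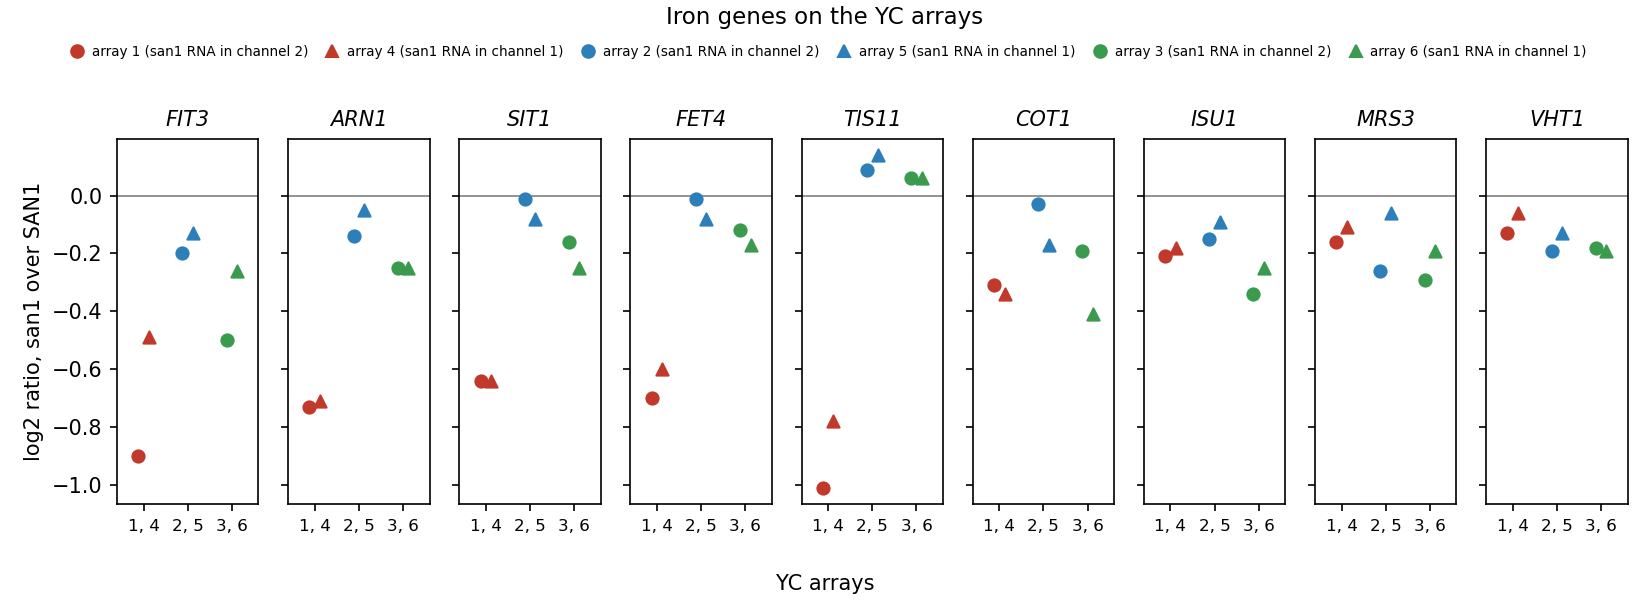
Log2 ratio of san1 over SAN1 (vertical axis) of 9 iron genes on the 6 YC arrays, grouped as arrays 1 and 4, 2 and 5, and 3 and 6. Circles have the san1 RNA in channel 2 and triangles in channel 1. FIT3, ARN1, SIT1, FET4 and TIS11 had their lowest pair mean on arrays 1 and 4, while ISU1, MRS3 and VHT1 had theirs on arrays 3 and 6.

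HMX1, TIS11 and CTH1 act downstream of uptake, and none passed. TIS11 (YLR136C), also called CTH2, encodes a protein that binds transcripts of iron-using proteins and speeds their decay. It stood at -1.01, 0.09, 0.06, -0.78, 0.14 and 0.06 in YC, and at -0.44, -0.19, 0.25, -0.50, -0.22 and -0.58 in YEPD. The YC values were strongly negative on arrays 1 and 4 and slightly positive on the other 4, and the mean was not distinguishable from 0 (-0.24, SE 0.152, adjusted p = 0.27). CTH1, its relative, had a fitted change of 0.00 in both media (SE 0.027). Its dye term passed, with the ratio higher by 0.18 where the san1 RNA was in channel 1 (adjusted p = 0.013).

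HMX1 (YLR205C), encoding heme oxygenase, which frees iron from heme, had the highest fitted change of the 32 genes in YC (0.41, SE 0.16, adjusted p = 0.083). It stood at 0.72, 0.67, 0.52, 0.29, 0.25 and 0.00 in YC, and at 1.30, 0.71, -0.47, -0.32 and -0.21 on YEPD arrays 1 to 5. Its YC values were all higher with the san1 RNA in channel 2 than in channel 1 (dye term -0.60, adjusted p = 0.1, not passed). With the array pairs averaged, which joins opposite dye orientations, HMX1 passed in YC (0.41, adjusted p = 0.014), as it did without YEPD array 1 or 3. The YEPD values spread more widely than those of any other iron gene in either medium.

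The regulators did not pass in either medium. AFT1 (YGL071W) stood at 0.01, -0.03, 0.03, -0.18, -0.24 and -0.13 in YC (-0.09, SE 0.034, adjusted p = 0.069), and AFT2 ranged from -0.10 to 0.18 (0.03, SE 0.037, adjusted p = 0.58). GRX3 was above 0 on 5 of 6 YC arrays (0.13, SE 0.052, adjusted p = 0.074). GRX4 was below 0 on 6 of 6 (-0.12, SE 0.045, adjusted p = 0.075), from -0.13 to just below 0 on 5 of them and at -0.38 on array 6. AFT1 passed without YEPD array 2, GRX3 without YC array 1 or 2, and GRX4 without YC array 4. In YEPD the fitted changes of these 4 genes lay between -0.01 and 0.02.

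**Figure D3:**
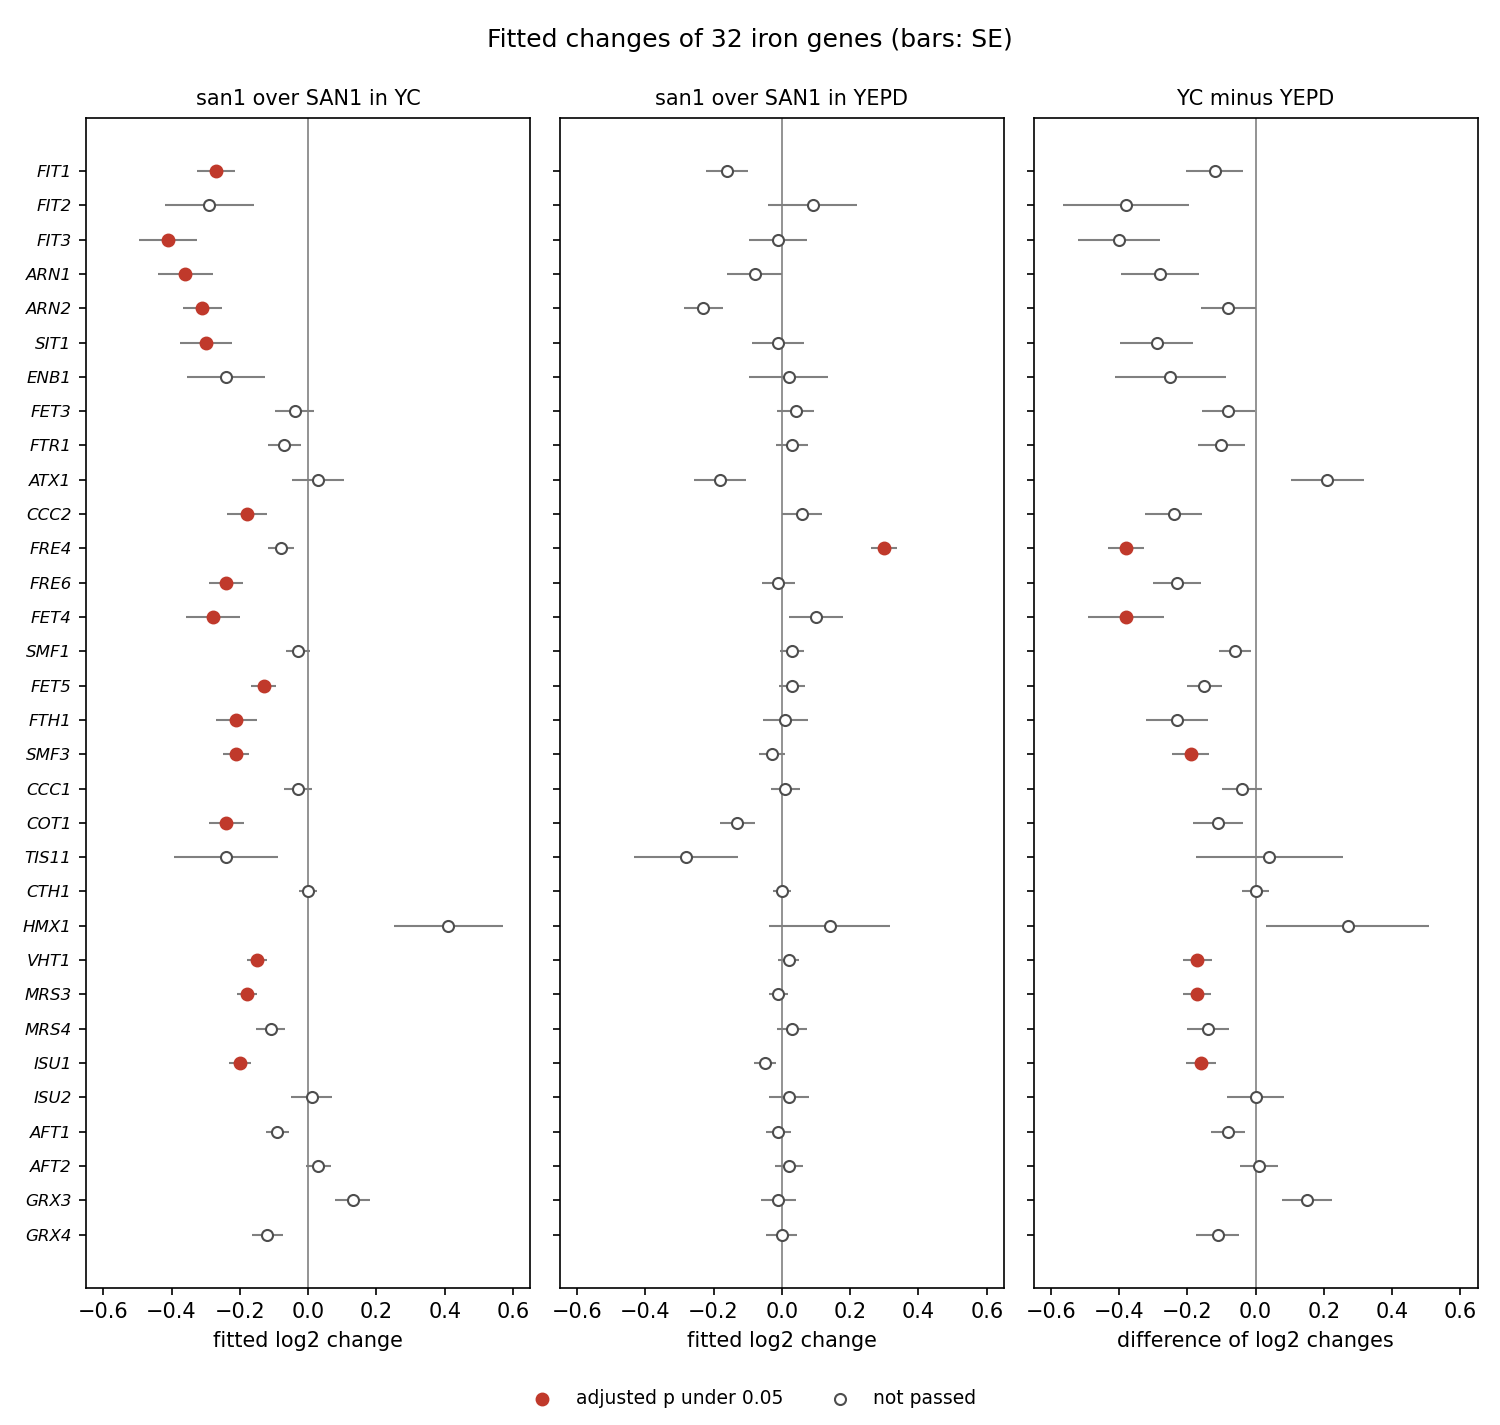
Fitted log2 change with its SE (bars) of the 32 tested iron genes in YC and in YEPD, and the difference of YC minus YEPD. Red points passed an adjusted p of 0.05. 15 genes fell in YC, 1 rose in YEPD, and 6 were lower in YC than in YEPD.

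Set against each other directly, the media differed for 6 of the 32 genes, each lower in YC (18.8%, against 4.26% of all genes tested). Over all genes 9.75% differed and 5.48% were higher in YC, as 0 of the 32 iron genes were. The 6 were FRE4, FET4, SMF3 (-0.19, SE 0.054, adjusted p = 0.046), VHT1 (-0.17, SE 0.042, adjusted p = 0.029), MRS3 (-0.17, SE 0.041, adjusted p = 0.026) and ISU1 (-0.16, SE 0.045, adjusted p = 0.045). The YC and YEPD arrays did not overlap for 3 tested genes, FRE4, MRS3 and ISU1, with YC on the lower side, and for 0 with YC on the higher side, against 1.87% and 2.12% of all genes. FIT3 (-0.40, SE 0.12, adjusted p = 0.053) and FRE6 (-0.23, SE 0.069, adjusted p = 0.052) just missed. Other than FRE4, every 1 of the 6 also depended on single arrays. The call was lost without YC array 3 or 6 or YEPD array 1, 3 or 4 for MRS3 (adjusted p = 0.054 to 0.07), and also without YC array 5 or YEPD array 6 for VHT1 (0.052 to 0.073). It was lost without YC array 3, 4 or 6 or any 1 YEPD array for ISU1 (0.06 to 0.096), and also without YC array 1 for SMF3 (0.054 to 0.1). With the array pairs averaged, 0 of the 6 remained, in a fit that called 3 of 5831 genes over the whole table (0.0514%).

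The decrease in YC was uneven over the arrays, and most of the genes that fell shared the pattern. The median of the 15 fallen genes was -0.42, -0.06, -0.19, -0.40, -0.09 and -0.25 on YC arrays 1 to 6. Arrays 1 and 4 were thus low together, as opposite dye orientations, and arrays 2 and 5 near 0. The mean of arrays 1 and 4 was at least 0.2 below that of arrays 2 and 5 for 17 of the 31 iron genes with values on all 4, against 12.8% of all genes. Among the 15 fallen genes the count was 11, and the exceptions were FET5, VHT1, MRS3 and ISU1. In YEPD the median of the same 15 genes lay between -0.05 and 0.01 on every array. The labels do not say whether arrays n and n plus 3 shared an RNA sample.

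Other gene groups moved over the same YC arrays. The median of 25 general stress genes was 0.02, 0.58, 0.43, 0.03, 0.57 and 0.31 on YC arrays 1 to 6, and that of 30 ribosome biogenesis genes 0.15, -0.21, -0.06, 0.20, -0.22 and -0.05. The median of 10 zinc response genes was -0.42, -0.16, -0.14, -0.40, -0.17 and -0.19. Stress genes were therefore near 0 on arrays 1 and 4, where the iron and zinc genes were lowest and ribosome biogenesis genes highest. The part of these shifts in the iron result was not tested. Without YC arrays 1 and 4, which leaves 4 YC arrays, 11 iron genes fell, in a fit that called 24.8% of 5658 genes in either direction. They comprised GRX4 (-0.16, adjusted p = 0.031) and 10 of the 15 named above, with FIT3 at -0.27 (adjusted p = 0.018), ARN2 at -0.19 (0.0038) and MRS3 at -0.20 (0.0022). The changes of FIT1, ARN1 and FRE6 shrank to -0.18 (0.019), -0.17 (0.015) and -0.14 (0.015).

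**Figure D4:**
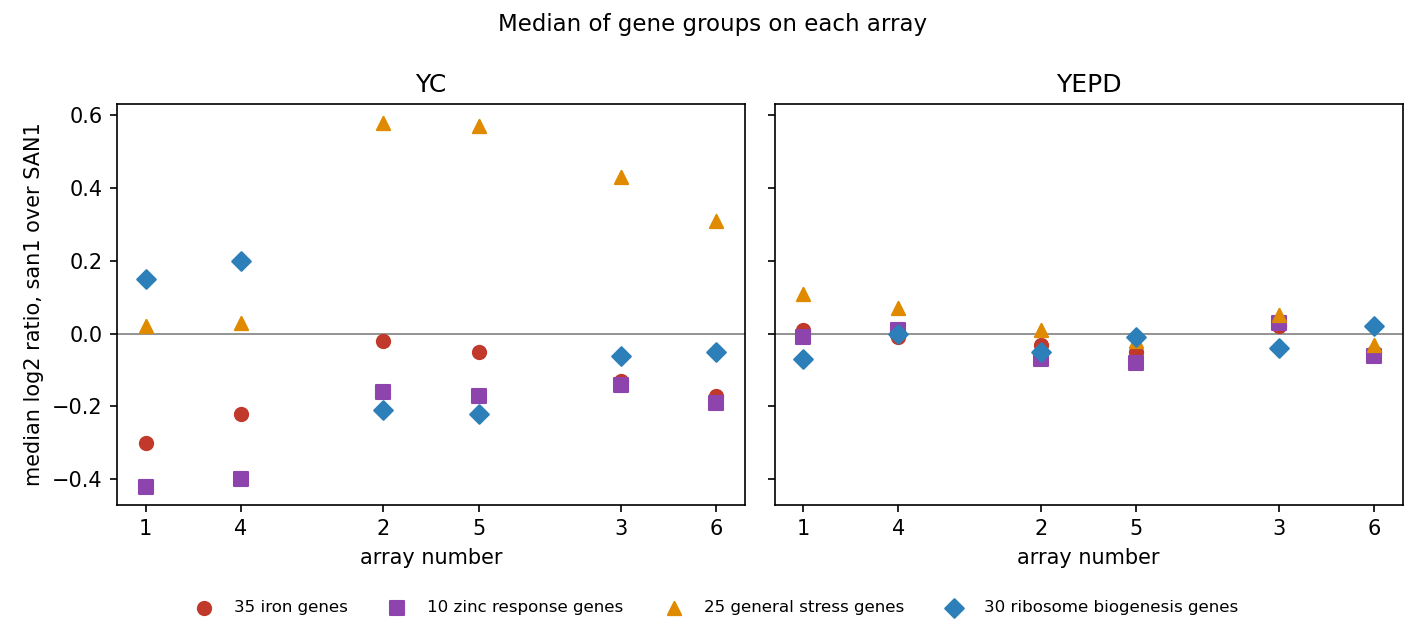
Median log2 ratio of san1 over SAN1 (vertical axis) of 4 gene groups on each array, YC on the left and YEPD on the right, with arrays n and n plus 3 placed side by side. In YC the iron and zinc groups were lowest on arrays 1 and 4, where the stress group was near 0, whereas all groups stayed between -0.08 and 0.11 in YEPD.

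Of 11 copper genes, 4 fell and 1 rose in YC, and 0 fell and 3 rose in YEPD. Of all genes tested, 11.8% fell and 13.0% rose in YC, and 0.323% fell and 1.71% rose in YEPD. FRE1, CTR1 and FRE7 fell in YC and rose in YEPD, whereas COX17, a copper chaperone gene for cytochrome oxidase, rose in YC (0.26, SE 0.047, adjusted p = 0.0026). FRE1, a surface reductase gene for iron and copper, ranged from -0.47 to -0.14 in YC and from 0.39 to 0.59 in YEPD, and the copper transporter gene CTR1 from -0.32 to -0.15 and from 0.39 to 0.83. The differences of YC minus YEPD were -0.76 (SE 0.062, adjusted p = 5.2e-05) and -0.78 (SE 0.068, adjusted p = 0.0002), and that of the metalloreductase gene FRE7 was -1.14 (SE 0.059, adjusted p = 1.6e-06). COX17 was higher in YC than in YEPD (0.38, SE 0.066, adjusted p = 0.0076). FRE4 was the iron gene that rose alongside FRE1, CTR1 and FRE7 in YEPD.

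Other genes of iron metabolism moved in both directions in YC. Of 9 measured uptake and Aft target genes outside the 35, 3 fell and 2 rose (55.6% called, against 24.8% of all genes in either direction). Those that fell included ATG41 (-0.29, SE 0.033, adjusted p = 0.0002), an autophagy gene, and the manganese transporter gene SMF2 (-0.12, SE 0.034, adjusted p = 0.025). The glutathione transferase gene ECM4 (0.21, SE 0.042) and the sterol-binding protein gene PRY1 (0.31, SE 0.065) rose. Of 21 tested iron-sulfur cluster assembly genes, 2 fell and 1 rose (14.3%, against 24.8% of all genes called in either direction). The cysteine desulfurase gene NFS1 (-0.15, SE 0.036, adjusted p = 0.0081) and the cytosolic assembly gene NAR1 (-0.15, SE 0.036, adjusted p = 0.0095) fell, and ERV1, a sulfhydryl oxidase gene, rose (0.19, SE 0.05, adjusted p = 0.017).

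Of 5 iron sensing genes, TYW1, which encodes a tRNA-modifying enzyme with an iron-sulfur cluster, fell (-0.15, SE 0.032, adjusted p = 0.005). Of 5 tested heme synthesis genes, HEM1, encoding the first enzyme of the pathway, fell (-0.15, SE 0.037, adjusted p = 0.011). Of 18 genes of iron-using proteins whose transcripts are known targets of TIS11, 2 fell and 1 rose. The sensing, heme and TIS11 target lists each had a smaller share called in YC than all genes tested (24.8%, in either direction). GLT1, encoding glutamate synthase, stood at -0.17 (SE 0.031, adjusted p = 0.0032) and ACO1, encoding aconitase, at -0.11 (SE 0.028, adjusted p = 0.014), while cytochrome c (CYC1) rose. In YEPD, 0 genes of the uptake, assembly, sensing and heme lists passed in limma (1, 1, 0 and 0 had an unadjusted p under 0.05), and of the TIS11 targets CYC1 alone rose (5.6%). Of all genes tested, 2.04% were called in YEPD in either direction.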

How the data were processed

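The authors deposited 1 table of log ratios, read here as log2, whose array medians were -0.0029 to 0.0033. Scanner, background correction, normalization and log base were not given in sources used here. Titles and source names placed YC arrays 1 to 3 in YC, although their descriptions name YEPD. Of 6204 rows, 5704 matched a RefSeq locus tag and 42 a synonym (assembly R64, used for names and gene order only), and rows of 1 gene were averaged.

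The median of each array was subtracted and ratios were expressed as san1 over SAN1. A gene entered with at least 2 values per dye orientation and medium (5890 kept, 287 removed). limma 3.58.1 in R 4.3.3 fitted a mean per medium and 1 dye term over all 12 arrays, with two-sided tests and a Benjamini-Hochberg adjusted p under 0.05. The dye term passed for 964 genes (16.4%), among them 3 of the 32 tested iron genes. The fit was tested on simulated data with noise drawn independently for each array. That test does not cover variation shared between arrays, such as arrays n and n plus 3.

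The members and lists were chosen with earlier results of these data known, and the lists' direction is therefore no independent evidence. All 35 members were to be named, and of each other list up to 4 called genes per contrast with the lowest p. Alternatives covered centring, scaling, the dye term, the arrays entering, array pairs, empty cells, the variance model, a size threshold and each array left out. Deviations from the mean of each medium and dye orientation were correlated over genes between the YC and YEPD arrays of 1 number. The correlations were -0.316 to 0.182. They do not decide whether arrays of 1 number were paired across the media, as weak correlations do not exclude pairing. Pairs of arrays within a medium are not covered by them. No sequences are printed, as no sequence table was used here.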

Additional observations from a re-analysis of the deposited data

Results flagged for a closer look

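6 iron genes had effects that differed between the media by the test of the difference itself. The difference of YC minus YEPD was -0.38 for FRE4, -0.38 for FET4, -0.19 for SMF3, -0.17 for VHT1, -0.17 for MRS3 and -0.16 for ISU1. Over 71 sets of 4 to 6 arrays, each of 1 iron gene or SAN1 in 1 medium, 2 held an array set apart from the rest by Dixon's criterion, a rate below the 1 in 20 that chance gives. ENB1 stood at 0.79 on YEPD array 2, against -0.33 to 0.01 on the other arrays of that medium. GRX4 stood at -0.38 on YC array 6, against -0.13 to 0.00 on the others.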

How the results depend on the processing

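Among values of called genes under the alternatives, 456 kept their call and 125 lost it, with 0 changes of sign. FIT1, FIT3, ARN2, FRE6, SMF3, MRS3 and ISU1 in YC and FRE4 in YEPD kept their calls in every alternative run on them, apart from the size threshold of 0.2, under which MRS3, VHT1, CCC2 and FET5 dropped out in YC and 11 genes remained. The 15 genes fallen in YC became 9 with arrays n and n plus 3 averaged and 9 with YC arrays 3 and 6 left out (chosen after seeing the data), and 12 to 16 without single arrays. Calls over all genes in YC, counted in either direction, moved too. They were 14% under averaging and 10.1% without YC arrays 3 and 6, against 24.8% with all arrays. Without single arrays they were 17.2% to 27.2%. The 0 risen became 1 with a dye term for each medium, with 1 medium only and with the pairs averaged, and 0 to 1 without single arrays. The 0 fallen in YEPD became 1, ARN2, with scaled arrays, with 1 medium only and with YC arrays 1 and 4 left out, and 0 to 1 without single arrays. The 6 genes lower in YC than in YEPD became 1 with no dye term, 0 with the pairs averaged and 3 with the pairs as a random block. They became 2 with a change of at least 0.2 and 1 to 9 without single arrays. Over all genes, this difference was called in either direction for 9.75% in the main fit and 4.14% with no dye term. The share was 0.0514% with the pairs averaged, 6.11% with the random block and 6.54% with the size threshold. Without single arrays it was 3% to 14%. In alternatives chosen after seeing the data, the 6 became 11 with YC arrays 2 and 5 left out (9.25% of all genes). They became 1 with YC arrays 3 and 6 left out (1.48%) and 1 with YEPD arrays 4 and 6 averaged (3.49%). The cause was not tested.

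With the array number as a replicate block, 12 genes fell in YC and 1 was lower in YC than in YEPD. Calls over all genes, in either direction, were 15.3% and 0.781%. The signal over background, which limits dim genes, is unknown.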
